A study of Mus musculus with 4 samples.

Results

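The G2 and mitosis genes are 43 genes whose products carry a cell from the end of DNA replication through chromosome segregation to cytokinesis. They were chosen by symbol, with earlier results of these data known. All 43 were found among the 14435 genes measured, and all 43 passed the filter on low counts, which left 11035 genes in the test. RNA was sequenced from RAW264.7 cells, a dividing mouse macrophage line. The shMettl3 group holds 2 libraries of cells transfected with shRNA to Mettl3, whose product is the methyltransferase that writes N6-methyladenosine on mRNA, and the Control group holds 2 libraries of cells transfected with a nonspecific shRNA. Every library, Control included, came from cells held for 12 hours in E. coli LPS, so there is no library without LPS. No LPS dose is stated, nor whether the shRNA cells were clones or mixed populations. The labels do not tell whether the 2 libraries of each group are separate cultures. Every p-value therefore rests on the spread between these libraries, which may be technical. One field of shMettl3 library 2 names METTL4, while its title names Mettl3.

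Mitosis is driven by cyclin-dependent kinase 1 with cyclin A or cyclin B, which the phosphatase CDC25 switches on and WEE1 and PKMYT1 hold off. Polo-like and Aurora kinases then build the spindle, the spindle checkpoint holds anaphase until kinetochores are attached, and the anaphase-promoting complex (APC/C) destroys cyclin B and securin. Most of these genes are silent in resting cells and are transcribed in G2, through the MuvB complex with B-MYB and FOXM1 at a promoter element called the CHR (cell cycle genes homology region). The mRNAs are therefore used as a measure of how many cells in a culture are dividing. In bulk RNA, fewer cells in G2 and less RNA per cell in G2 cannot be told apart.

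The promoters show what most of these genes share apart from the selection by name, so a few are printed. RefSeq promoters of build GRCm38.p6, 250 bases before to 50 bases after the start of the transcript, were at hand for 37 of the 43 genes. The CHR sequence TTTGAA was searched on both strands, so TTCAAA also counts as a match. It lay in the window of 26 of these 37 genes (70.3%), and in that of 1298 of 8899 tested genes with a promoter (14.6%). The CCAAT box, the site of the factor NF-Y, lay on either strand in 29 of 37 (78.4%), against 43.7% of tested genes. The related palindrome TTCGAA lay in 4 of 37 (10.8%), against 2.72%. TTCGAA cannot share bases with TTTGAA, while CCAAT read on the other strand can share its end base with it, as in the Cdca8 window. A match describes the letters and says nothing of binding. The 6 windows below, written 5′ to 3′ along the gene with each TTTGAA or TTCAAA in capitals, belong to the gene with the largest rise (Nek2, with no match), to 4 other genes that rose and to Cdk1. These 4 all hold a match and were not chosen by the size of the rise. Pttg1 (log2 fold change 0.76), Nuf2 (0.75) and Cenpe (0.74) rose more than Anln (0.65) and hold no match. Of the 14 risen genes with a promoter 9 hold one.
Nek2 promoter, chr1:191821223-191821522, plus strand: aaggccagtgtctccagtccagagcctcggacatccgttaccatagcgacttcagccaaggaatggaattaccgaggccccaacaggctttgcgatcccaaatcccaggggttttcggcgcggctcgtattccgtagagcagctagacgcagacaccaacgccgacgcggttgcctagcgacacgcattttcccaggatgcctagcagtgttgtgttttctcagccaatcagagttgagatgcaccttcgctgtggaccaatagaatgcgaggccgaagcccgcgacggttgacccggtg
Plk1 promoter, chr7:122159185-122159484, plus strand: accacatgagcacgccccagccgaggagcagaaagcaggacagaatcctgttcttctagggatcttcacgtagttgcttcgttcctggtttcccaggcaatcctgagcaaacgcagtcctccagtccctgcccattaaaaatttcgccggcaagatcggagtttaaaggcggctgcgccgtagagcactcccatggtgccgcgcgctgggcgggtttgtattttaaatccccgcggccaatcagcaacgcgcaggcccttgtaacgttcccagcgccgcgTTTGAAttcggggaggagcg
Cdc20 promoter, chr4:118437294-118437593, minus strand: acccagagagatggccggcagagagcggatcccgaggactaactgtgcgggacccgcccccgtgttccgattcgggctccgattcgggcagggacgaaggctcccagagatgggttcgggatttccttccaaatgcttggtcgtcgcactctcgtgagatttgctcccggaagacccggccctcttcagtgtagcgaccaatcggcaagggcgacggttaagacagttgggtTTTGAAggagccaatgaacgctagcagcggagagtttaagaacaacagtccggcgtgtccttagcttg
Cenpf promoter, chr1:189688037-189688336, minus strand: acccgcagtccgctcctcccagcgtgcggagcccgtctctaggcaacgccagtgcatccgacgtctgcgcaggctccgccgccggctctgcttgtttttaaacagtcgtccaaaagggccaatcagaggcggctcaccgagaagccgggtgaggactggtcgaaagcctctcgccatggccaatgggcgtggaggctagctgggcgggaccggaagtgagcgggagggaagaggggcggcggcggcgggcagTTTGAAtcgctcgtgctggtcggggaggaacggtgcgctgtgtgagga
Anln promoter, chr9:22389157-22389456, minus strand: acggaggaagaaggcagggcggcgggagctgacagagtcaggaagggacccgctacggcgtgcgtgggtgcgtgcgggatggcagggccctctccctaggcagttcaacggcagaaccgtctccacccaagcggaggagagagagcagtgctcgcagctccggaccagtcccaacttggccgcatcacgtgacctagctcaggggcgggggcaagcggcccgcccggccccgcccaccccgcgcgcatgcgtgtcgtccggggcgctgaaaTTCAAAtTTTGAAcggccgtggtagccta
Cdk1 promoter, chr10:69352863-69353162, minus strand: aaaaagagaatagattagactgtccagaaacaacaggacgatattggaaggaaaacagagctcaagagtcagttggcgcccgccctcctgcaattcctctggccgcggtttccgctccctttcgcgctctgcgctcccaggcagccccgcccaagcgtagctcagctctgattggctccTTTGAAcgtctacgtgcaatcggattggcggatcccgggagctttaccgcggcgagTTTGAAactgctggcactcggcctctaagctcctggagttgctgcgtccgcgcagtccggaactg
In Plk1 the element began 30 bases after the first base of the transcript, in Cenpf 2 bases after it and in Cdc20 18 bases before it. Anln carried it once on each strand, 21 and 28 bases after the start, and Cdk1 at 71 and 15 bases before the start.

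The target of the shRNA was lower in both shMettl3 libraries. Mettl3 (Entrez gene 56335) had 11.5 and 11.2 CPM (counts scaled to the library size, with TMM factors) in the shMettl3 libraries and 30.9 and 29.9 CPM in the Control libraries, a log2 fold change of -1.42 (SE 0.10, adjusted p = 1.58e-06). Total estimated counts ran from 16342313 to 17193639 per library. All 9 macrophage markers examined were present, with a summed level of 8347 and 8311 CPM in the shMettl3 libraries and 13110 and 13470 CPM in the Control libraries, and 6 of the 8 tested fell. The other marker lists were near the floor. Fibroblast markers, of which 5 of 8 were measured, summed to 4.22 and 1.21 CPM in the shMettl3 libraries and 0.301 CPM in each Control library, where Col1a1, Col1a2 and Col3a1 were at 0. Lymphocyte, dendritic cell and neutrophil markers summed to at most 6.78 CPM in any library. Their part in the results was not tested.

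The Control libraries differed from each other in these genes. All 43 genes were higher in Control library 2 than in Control library 1, where 50.7% of all tested genes were. The median log2 ratio of Control 2 over Control 1 was 0.47 over the 43 genes, with a range from 0.06 (Bub3) to 0.76 (Ccnb2), and 0.00 over all tested genes. For 34 of the 43 genes the difference was beyond counting error by an exact 95% Clopper-Pearson interval, always with Control 2 higher, against 15.3% of tested genes higher and 15.5% lower. Such an interval compares 2 libraries, not conditions, and covers counting error only, since the reads carry no molecular identifiers. The shMettl3 libraries showed no such gap. Between them 20 of the 43 genes were higher in library 2, the median log2 ratio was -0.02, and 3 genes were higher and 2 lower beyond counting error, against 8.65% and 9.7% of tested genes. Control 1 was the lowest of the 4 libraries for 39 of the 43 genes. The results below are therefore given with all 4 libraries and again without Control 1 and without Control 2. Each fit with a single Control library takes its spread from the shMettl3 libraries alone and assumes that the lone Control library varies like them.

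**Figure D1:**
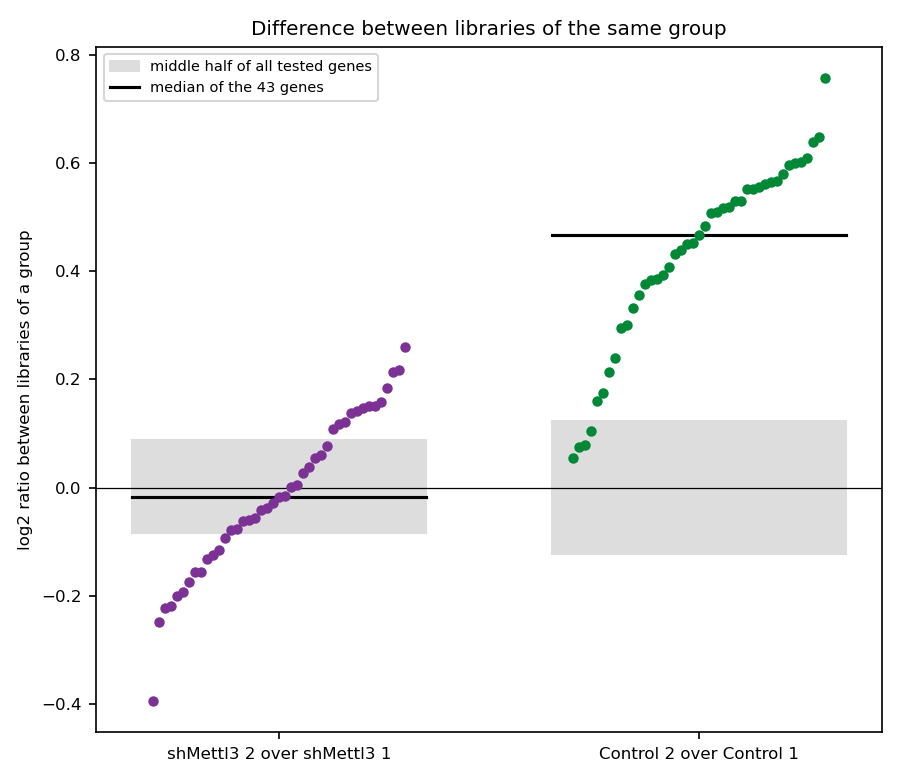
Log2 ratio of library 2 over library 1 for each of the 43 G2 and mitosis genes, in the shMettl3 group and in the Control group, with the median as a line and the interquartile range of all tested genes as a grey box. The shMettl3 ratios lie on both sides of 0 (median -0.02), and all 43 Control ratios lie above 0 (median 0.47).

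More of the genes rose than fell in the shMettl3 libraries. By edgeR's quasi-likelihood test, with p-values adjusted by Benjamini-Hochberg over all tested genes and called below 0.05, 15 of the 43 rose and 1 fell, or 34.9% and 2.33%, where 21.4% of tested genes rose and 22.3% fell. The share called in either direction, 16 of 43, was no higher than the 43.7% of all tested genes. The log2 fold change (shMettl3 over Control) was above 0 for 35 genes and below 0 for 8, with a median of 0.34 against 0.01 over all tested genes and a range from -0.32 (Incenp) to 1.05 (Nek2). Both shMettl3 libraries lay above both Control libraries for 26 of the 43 genes, where 37.1% of tested genes did so, and below both for 3, where 36.3% did, so that 29 of 43 did not overlap between groups, against 73.4% of tested genes. The rises were small. Only Nek2 passed a test against a 1.5-fold change, which 3.76% of tested genes passed upward and 4.87% downward.

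The size of these differences moved with the Control library used. Without Control 1, 13 of the 43 genes rose and 5 fell, against 22.7% and 24.8% of tested genes, and the median was 0.12. Of the 15 genes that rose with all libraries, all 15 had a positive log2 fold change without Control 1 and 12 were still called. The 5 that fell without Control 1 were Incenp, Bub1b, Cks2, Espl1 and Cdca8. Without Control 2, 33 rose and 0 fell, against 20.6% and 22.4% of tested genes, and the median was 0.61. A count of 10 rose and 0 fell without shMettl3 library 1 (13.5% and 14.3% of tested genes), and 12 rose and 1 fell without shMettl3 library 2 (15% and 15.7%). Anln, Cdc25c, Cdca3, Cenpe, Cenpf, Kif23, Nek2, Plk1 and Pttg1, 9 of the 15, were called in every alternative in which they were tested, apart from the 1.5-fold test, which Nek2 also passed. Cdc25c was not tested where a mean of at least 5 CPM was required.

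**Figure D2:**
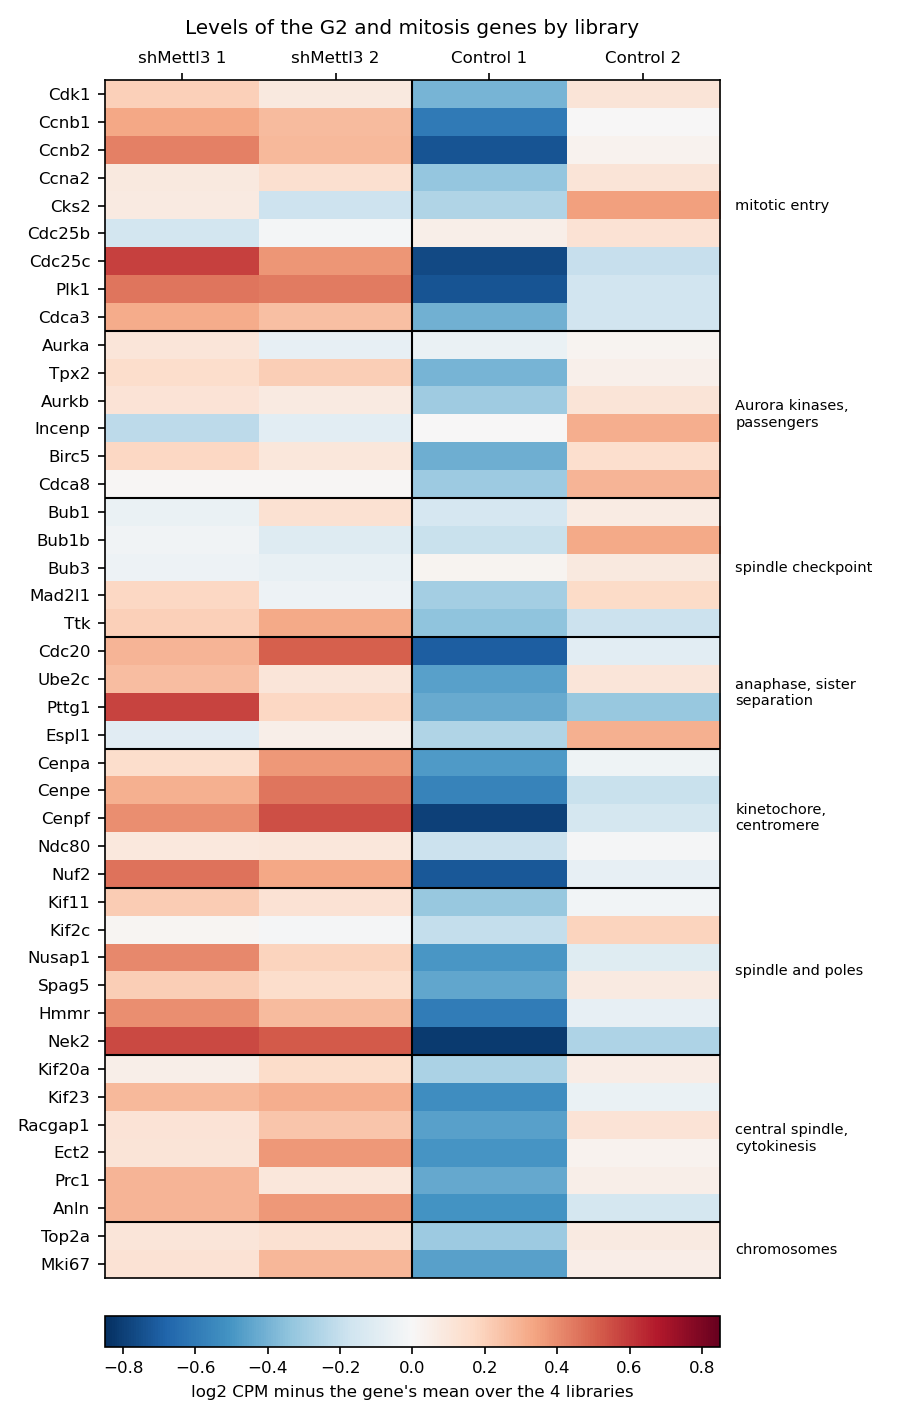
Level of each of the 43 genes (rows, grouped by role) in each library (columns), as log2 CPM minus the gene's mean over the 4 libraries. Control 1 is the lowest library for 39 genes, and Control 2 lies close to the shMettl3 libraries for many genes. Both Control libraries lie below both shMettl3 libraries for 26 genes (37.1% of all tested genes do), among them Nek2, Plk1, Cdc25c, Cenpe and Cenpf. Control 2 is the highest library for 8 genes.

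**Figure D3:**
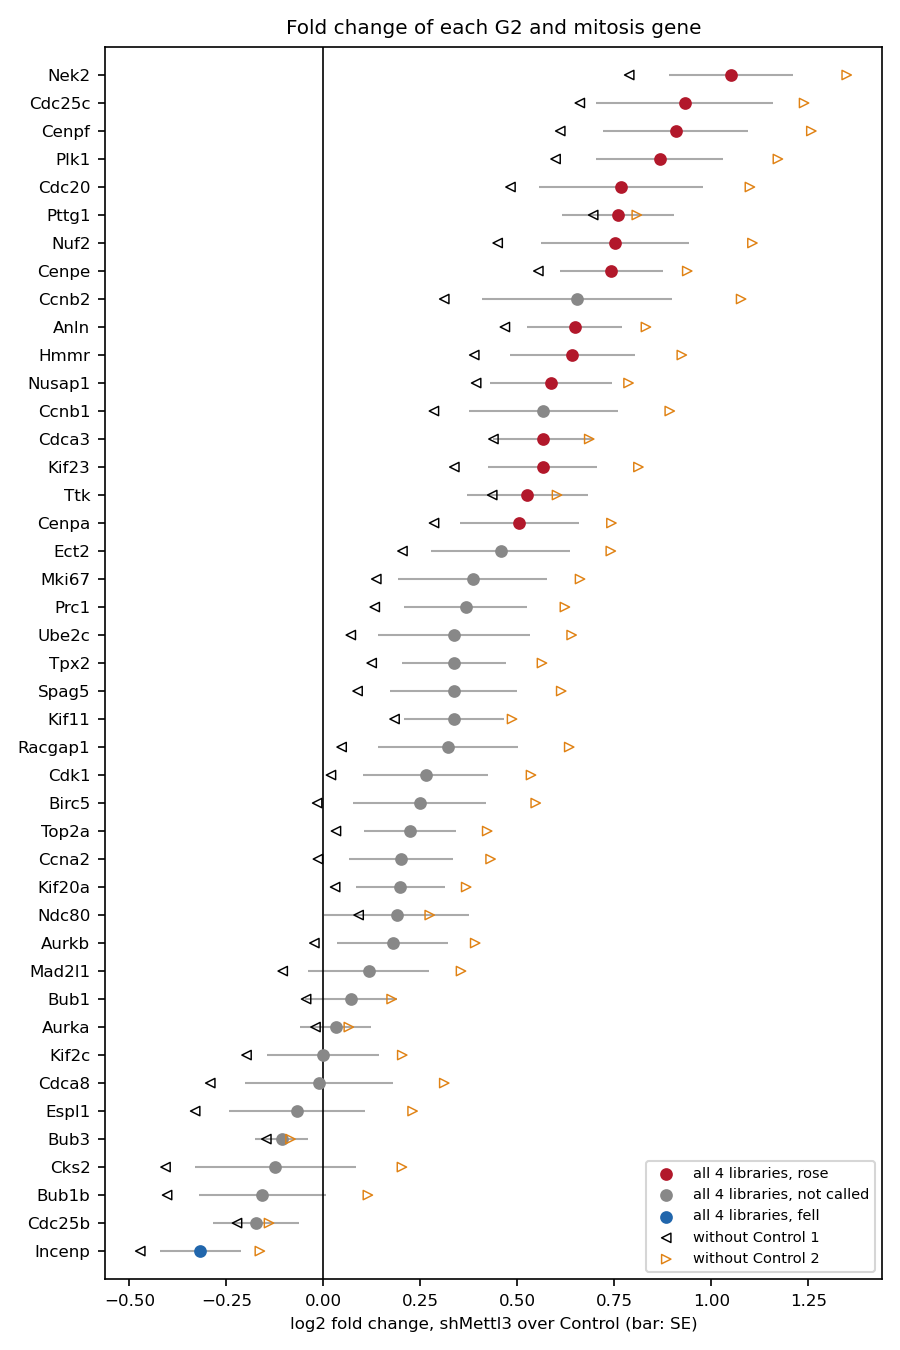
Log2 fold change (shMettl3 over Control) of each gene with its standard error, coloured by call, and the value without Control 1 (left triangle) and without Control 2 (right triangle). The values run from -0.32 for Incenp to 1.05 for Nek2, and every value without Control 1 lies left of the one without Control 2.

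The role groups below hold few genes each, and their counts are to be read against the 21.4% of all tested genes that rose and the 22.3% that fell. Among the 9 genes of mitotic entry, Plk1, Cdc25c and Cdca3 rose and none fell (median log2 fold change 0.57). Plk1 (Entrez gene 18817), the polo-like kinase that helps to switch on cyclin B with CDK1, had 23.1 and 22.9 CPM in the shMettl3 libraries and 10.2 and 15.1 CPM in the Control libraries. Its groups did not overlap, and the log2 fold change was 0.87 (SE 0.16, adjusted p = 0.00303), or 0.60 without Control 1. The annotation places an antisense transcript, Gm44985, over exons of Plk1, and these libraries do not mark strand. Cdc25c (Entrez gene 12532), a phosphatase that removes the inhibitory phosphates of CDK1, had 5.35 and 4.66 CPM in the shMettl3 libraries and 2.11 and 3.13 CPM in the Control libraries. It rested on low counts, 90 and 81 in the shMettl3 libraries against 35 and 52 in the Control libraries, the lowest of the set in both Control libraries, and rose by 0.93 (SE 0.23, adjusted p = 0.00693). Cdca3 (Entrez gene 14793), a part of the ubiquitin ligase that removes WEE1, had 13.8 and 13.2 CPM in the shMettl3 libraries and 8.37 and 9.88 CPM in the Control libraries (0.57, SE 0.13, adjusted p = 0.00468).

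The kinase at the centre of mitotic entry and its cyclins were not called. Ccnb1 (Entrez gene 268697), cyclin B1, had 33.8 and 32.4 CPM in the shMettl3 libraries and 17.8 and 26.9 CPM in the Control libraries, a log2 fold change of 0.57 (SE 0.19, adjusted p = 0.0635). Ccnb2 (Entrez gene 12442), cyclin B2, had 19.1 and 17.1 CPM in the shMettl3 libraries and 8.55 and 14.5 CPM in the Control libraries (0.65, SE 0.24, adjusted p = 0.0839). For both cyclins the groups did not overlap, and the Control libraries differed by more than the shMettl3 libraries did. Ccnb1 was called in 10 of 16 alternatives and Ccnb2 in 5, all with a positive sign. Cdk1 (Entrez gene 12534) had 30.7 and 28.3 CPM in the shMettl3 libraries and 20.3 and 28.9 CPM in the Control libraries, so that the groups overlapped (0.26, SE 0.16, adjusted p = 0.229). Its log2 fold change was 0.02 without Control 1 and 0.54 without Control 2. Ccna2, cyclin A2, was at 0.20, the CDK-binding protein gene Cks2 at -0.12 and the phosphatase gene Cdc25b at -0.17, none of them called.

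Of the 6 genes of Aurora kinases and the chromosomal passenger complex none rose and 1 fell (median 0.10). Aurka (Entrez gene 20878), the Aurora kinase of centrosomes and spindle poles, had 35.3 and 31.3 CPM in the shMettl3 libraries and 31.7 and 33.4 CPM in the Control libraries. The groups overlapped, and Aurka was among the 3 genes with a change closest to 0 (0.03, SE 0.09, adjusted p = 0.806). Tpx2, which activates Aurora A on the spindle, stood at 0.34 (SE 0.13, adjusted p = 0.0788). Aurkb (Entrez gene 20877), the kinase of the passenger complex, had 13.3 and 13.0 CPM in the shMettl3 libraries and 9.99 and 13.3 CPM in the Control libraries (0.18, SE 0.14, adjusted p = 0.338). Incenp (Entrez gene 16319), the scaffold of that complex, was the gene that fell, with 69.4 and 76.3 CPM in the shMettl3 libraries and 81.3 and 100.2 CPM in the Control libraries. This log2 change of -0.32 (SE 0.10, adjusted p = 0.0352) is described because it was the single fall, and Incenp was thus chosen after its values were seen. The call on Incenp was lost without Control 2 (adjusted p = 0.0985) and without shMettl3 library 1 (0.182), with library size as the scaling and with FPKM and TPM. The other passengers Birc5, which encodes survivin, and Cdca8, which encodes borealin, were at 0.25 and -0.01 and were not called.

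The spindle checkpoint was close to the median of all genes, with 1 of 5 members that rose and none that fell (median 0.07). Ttk, which encodes the checkpoint kinase MPS1, rose by 0.53 (SE 0.16, adjusted p = 0.0181), with 7.56 and 8.22 CPM in the shMettl3 libraries and 5.18 and 5.78 CPM in the Control libraries. Ttk was called only with all 4 libraries or without Control 2 among the fits that leave out a library, since its adjusted p was 0.0585 without Control 1, 0.0518 without shMettl3 library 1 and 0.131 without shMettl3 library 2. Bub1, Bub1b, Bub3 and Mad2l1, which encode the kinase BUB1, the pseudokinase BUBR1 and the proteins BUB3 and MAD2 that hold back CDC20, were between -0.16 and 0.12 and were not called.

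Of the 4 genes of anaphase promotion and sister separation 2 rose and none fell (median 0.55). Cdc20 (Entrez gene 107995), the activator that the checkpoint restrains, had 31.0 and 36.0 CPM in the shMettl3 libraries and 15.6 and 23.8 CPM in the Control libraries. It rose by 0.77 (SE 0.21, adjusted p = 0.0374) with groups that did not overlap, and lost its call without shMettl3 library 1 (adjusted p = 0.0852) and without library 2 (0.149). Exons of Elovl1 overlap Cdc20 on the other strand, and Elovl1 fell by 0.42. Pttg1 (Entrez gene 30939), which encodes securin, the inhibitor of separase, had 20.9 and 15.9 CPM in the shMettl3 libraries and 10.5 and 11.3 CPM in the Control libraries (0.76, SE 0.14, adjusted p = 0.0017). Pttg1 differed little between the Control libraries (log2 ratio 0.11), and its value without Control 1 was 0.70. The gene of separase itself, Espl1, was at -0.07 and not called, and Ube2c, the ubiquitin-conjugating enzyme of the APC/C, was at 0.34 and not called.

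Kinetochore and centromere genes had the highest median of the role groups, 0.74, with 4 of 5 members that rose, where 21.4% of all tested genes did. These 5 do not stand for all such genes, and further ones are in the list of 46 other genes given below. There 16 rose and 1 fell (34.8% and 2.17%, against 21.4% and 22.3% of all tested genes). Among them Dsn1 (0.66) and Cenpl (0.60) rose, while Knl1 (0.42), Mis12 (0.16), Pmf1 (-0.36) and Cenpu (-0.28) were not called. Cenpe (Entrez gene 229841), the kinesin that carries chromosomes to the spindle equator, had 20.3 and 22.5 CPM in the shMettl3 libraries and 11.1 and 14.5 CPM in the Control libraries (0.74, SE 0.13, adjusted p = 0.00113). Cenpf (Entrez gene 108000), a large protein of the outer kinetochore, had 15.5 and 17.2 CPM in the shMettl3 libraries and 6.80 and 10.6 CPM in the Control libraries (0.91, SE 0.19, adjusted p = 0.00497). Nuf2 (Entrez gene 66977), a subunit of the NDC80 complex that grips microtubules, had 16.1 and 14.7 CPM in the shMettl3 libraries and 7.10 and 11.1 CPM in the Control libraries. It rose by 0.75 (SE 0.19, adjusted p = 0.0138) and lost its call without shMettl3 library 1 (0.0663). For these 3 genes every shMettl3 value was above every Control value. Ndc80, the subunit of the same complex that gives it its name, was at 0.19 (SE 0.19) and not called. Cenpa, the histone H3 variant of centromeres, rose by 0.51 (SE 0.15, adjusted p = 0.0235) and was called in 10 of 16 alternatives. It lost its call without Control 1 (log2 fold change 0.29) and without shMettl3 library 2 (0.39), among others.

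**Figure D4:**
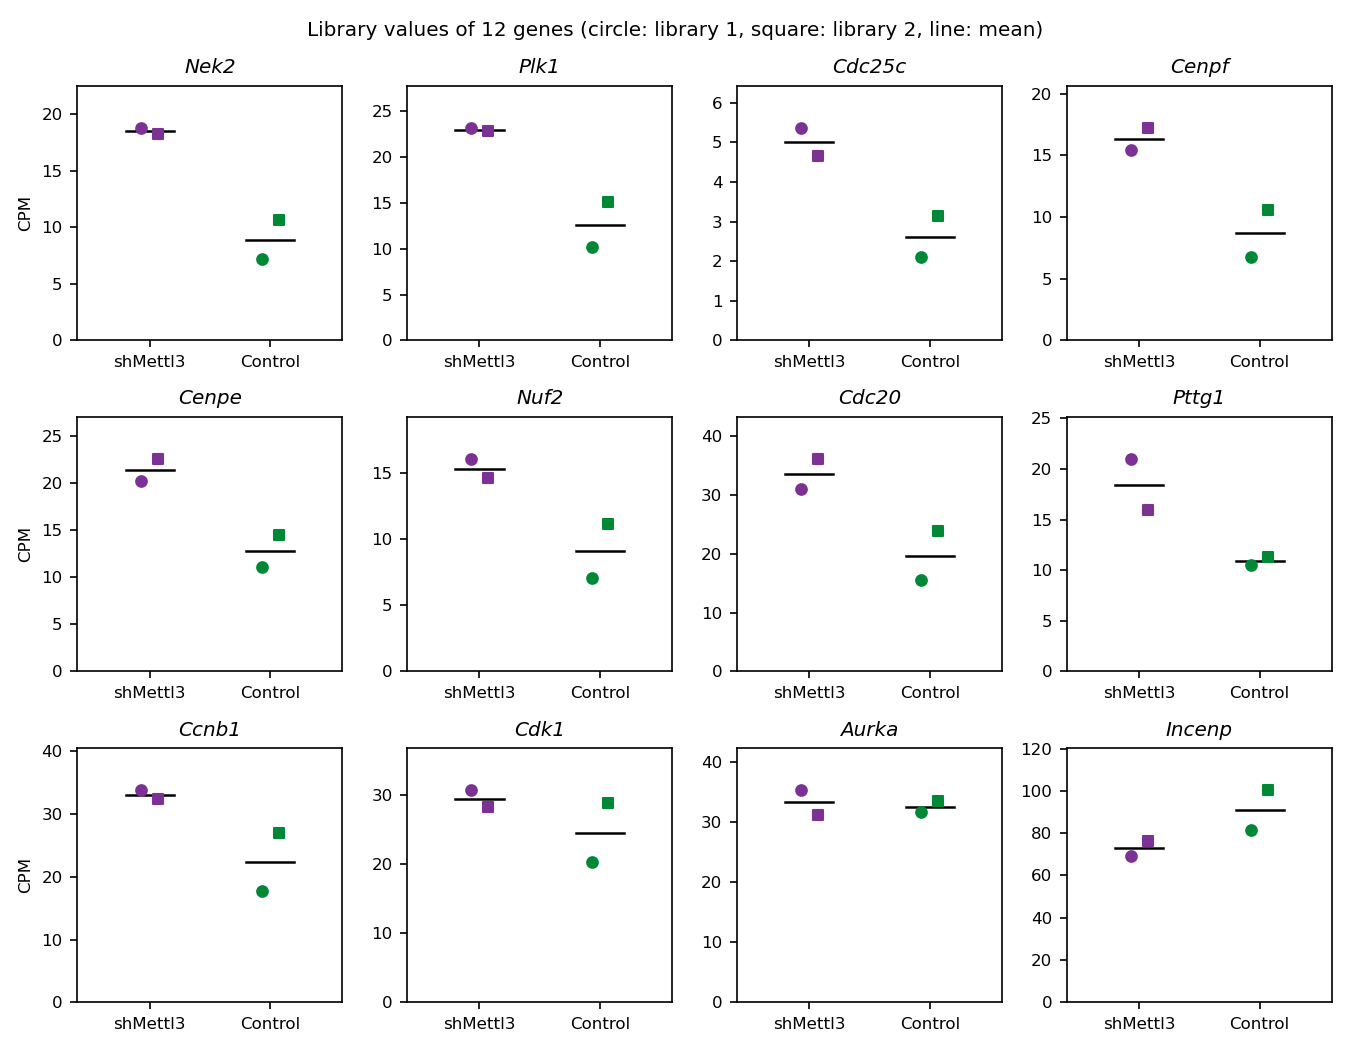
CPM of 12 of the genes in each library (circle for library 1, square for library 2) with the group mean as a line, shMettl3 to the left of Control. For the upper 2 rows and for Ccnb1 both shMettl3 libraries lie above both Control libraries, and for Incenp they lie below. The groups overlap for Cdk1 and Aurka. Over all tested genes 73.4% do not overlap. The square of the Control group is always above its circle.

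Spindle and pole genes included the largest rise. Nek2 (Entrez gene 18005), a kinase that parts the centrosomes before the spindle forms, had 18.7 and 18.2 CPM in the shMettl3 libraries and 7.22 and 10.6 CPM in the Control libraries. The shMettl3 libraries were close to each other and above both Control libraries, and the log2 fold change was 1.05 (SE 0.16, adjusted p = 5.86e-04), or 0.79 without Control 1. Nek2 also overlaps an antisense transcript, Gm38037, in the annotation. Hmmr (Entrez gene 15366), which encodes a microtubule-binding spindle protein, had 18.2 and 16.7 CPM in the shMettl3 libraries and 9.15 and 13.2 CPM in the Control libraries (0.64, SE 0.16, adjusted p = 0.0103), and its adjusted p was 0.0513 without shMettl3 library 1. Nusap1 (Entrez gene 108907), which bundles spindle microtubules around chromosomes, had 12.1 and 10.4 CPM in the shMettl3 libraries and 6.50 and 8.50 CPM in the Control libraries (0.59, SE 0.16, adjusted p = 0.0114). The call on Nusap1 was lost without Control 1 (adjusted p = 0.0509) and without shMettl3 library 1 (0.0942). The motor genes Kif11 (0.34, adjusted p = 0.0534) and Kif2c (0.00) and the spindle gene Spag5 (0.34) were not called. Kif11, which slides spindle microtubules apart, missed the threshold by little.

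Among the 6 genes of the central spindle and cytokinesis, Anln and Kif23 rose and none fell (median 0.41). Anln (Entrez gene 68743), which encodes anillin, the scaffold of the contractile ring, had 25.1 and 26.5 CPM in the shMettl3 libraries and 14.4 and 18.5 CPM in the Control libraries (0.65, SE 0.12, adjusted p = 0.0015). Kif23, the motor of the centralspindlin complex, rose by 0.56 (SE 0.14, adjusted p = 0.0105), while its partner in the complex, Racgap1, was at 0.32 (SE 0.18) and not called. Ect2, the activator of RhoA at the cleavage site, Prc1, which bundles midzone microtubules, and the kinesin gene Kif20a were at 0.46, 0.37 and 0.20 and were not called.

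Both general markers of dividing cells had higher values in the shMettl3 libraries and were not called. Top2a (Entrez gene 21973), topoisomerase II alpha, had 72.1 and 73.5 CPM in the shMettl3 libraries and 54.1 and 70.6 CPM in the Control libraries (0.22, SE 0.12, adjusted p = 0.165). Mki67 (Entrez gene 17345), which encodes the Ki-67 antigen, had 65.2 and 72.8 CPM in the shMettl3 libraries and 43.5 and 62.2 CPM in the Control libraries (0.38, SE 0.19, adjusted p = 0.184). Control 2 exceeded Control 1 by a log2 ratio of 0.38 for Top2a and 0.52 for Mki67. For both genes the lower shMettl3 library was just above Control 2, and without Control 1 the values were 0.03 and 0.14.

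Per transcript length the set spanned a wide range. By the authors' TPM, averaged over the 4 libraries, Bub3 was highest at 120 TPM, followed by Ube2c (69.2), Cks2 (43.8), Incenp (42.4) and Pttg1 (40.1), and Cenpf was lowest at 1.96. Bub3 was also the gene with the smallest gap between the Control libraries. The summed level of the 43 genes was 881 and 858 TPM in the shMettl3 libraries and 593 and 743 TPM in the Control libraries. With log2(TPM + 1) the median log2 fold change of all tested genes was itself 0.14, against 0.01 with TMM. The same 43 genes summed to 1136 and 1142 TMM-scaled CPM in the shMettl3 libraries and 844 and 1090 in the Control libraries. Estimated counts were not whole for 5 of them (Ccna2, Kif20a, Cenpf, Birc5 and Hmmr), as when reads are divided between related sequences, so these values carry that uncertainty. Exons of 9 of them (Ccna2, Cdc25b, Plk1, Cdc20, Ube2c, Nusap1, Nek2, Kif20a and Prc1) overlap a gene on the other strand in GENCODE M21, and reads of such pairs cannot be told apart by strand.

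The promoter element lay in genes that rose and in genes that were not called. Of the 14 risen genes with a promoter in the table, 9 held TTTGAA, and of the 23 that were not called, 17 did. Nek2, Cenpe, Nuf2, Nusap1 and Pttg1 rose with no TTTGAA in the window, and Aurka, Cdca8 and Bub3 had one and were not called. These are descriptions of 37 windows, with no test.

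Other genes of chromosome segregation were read from lists beside the 43. In a list of 46 further spindle, centrosome and kinetochore genes 16 rose and 1 fell (34.8% and 2.17%, against 21.4% and 22.3% of all tested genes), with a median of 0.35. Aspm, a spindle pole protein, rose by 1.02 (SE 0.17, adjusted p = 6.81e-04) and Kif14, a kinesin of the midbody, by 0.99 (SE 0.18, adjusted p = 0.00132). Cenpw, a centromere protein, rose by 0.83 and lost its call without Control 1 (adjusted p = 0.0896) and without shMettl3 library 1. Without Control 1, 11 of this list rose and 4 fell, against 22.7% and 24.8% of tested genes. More of this list rose without Control 2 than with all libraries. Fewer rose without either shMettl3 library, where fewer of all tested genes rose as well. Of 23 cohesin and condensin genes 8 rose and 0 fell (34.8% and 0%, against 21.4% and 22.3% of all tested genes, median 0.26), the largest being Sgo1, the protector of centromeric cohesion, at 0.72, with Ncaph (0.41) and Ncapd2 (0.36), both subunits of condensin. Only 2 of them rose without shMettl3 library 1, where 13.5% of tested genes did, and 1 without library 2, where 15% did. The APC/C subunits and their regulators stayed near the median of all genes at 0.05. Of these 17 genes 4 rose (23.5%, against 21.4% of all tested genes) and 0 fell (against 22.3%). The largest rises were those of Cdc16 (0.38), Anapc5 (0.30) and the coactivator gene Fzr1 (0.29). With 1 shMettl3 library left out, only Cdc16 kept its call both times. Anapc5 lost its call without library 2, Fzr1 without library 1, and the remaining gene that rose lost its call both times.

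The regulators of the programme were called less often than all tested genes, with calls in both directions. Of 23 transcription factors and MuvB subunits 3 rose and 4 fell (13.0% and 17.4%, against 21.4% and 22.3% of all tested genes), with a median of 0.00. Foxm1, the forkhead activator of G2 genes, fell by 0.61 on the log2 scale (SE 0.11, adjusted p = 0.00102), with 21.4 and 21.1 CPM in the shMettl3 libraries and 29.2 and 35.7 CPM in the Control libraries. Lin9, a MuvB subunit, rose by 0.70 (SE 0.12, adjusted p = 7.34e-04), with 15.6 and 15.1 CPM in the shMettl3 libraries and 9.08 and 9.82 CPM in the Control libraries. The MuvB subunits did not move together. Lin37 fell by 0.51 (SE 0.11, adjusted p = 0.00354) and was called in 15 of 16 alternatives. Rbbp4 rose by 0.20 (SE 0.07, adjusted p = 0.0345), and Lin52 (-0.18) and Lin54 (0.08) were not called. Mybl2, which encodes B-MYB, had 24.98 and 24.5 CPM in the shMettl3 libraries and 17.4 and 27.2 CPM in the Control libraries, so the groups overlapped (0.15, SE 0.22, adjusted p = 0.617). The repressor gene E2f7 rose by 0.64 with an adjusted p of 0.049 and was called in 6 of 15 alternatives. E2f6 fell by 0.56 (SE 0.09, adjusted p = 6.56e-04) and was called in 15 of 16 alternatives. E2f1 fell by 0.34 (SE 0.10, adjusted p = 0.0163) and was called in 8 of 16.

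Of 15 brakes on mitotic entry 2 rose and 3 fell (13.3% and 20%, against 21.4% and 22.3% of all tested genes), with a median of 0.12. Gadd45g and Gadd45a, stress-induced proteins that can restrain CDK1, fell by 1.22 (SE 0.16, adjusted p = 1.39e-04) and by 0.74 (SE 0.17, adjusted p = 0.00559). Atm, the DNA damage kinase, rose by 0.75 (SE 0.10, adjusted p = 1.88e-04). Wee1, the kinase that holds CDK1 off, was at 0.12 and not called. Cdkn1a, which encodes the inhibitor p21, fell by 0.22 with an adjusted p of 0.0472, and was called in 5 of 16 alternatives. Among 11 G1 cyclins, kinases and inhibitors 4 rose and 3 fell (36.4% and 27.3%, against 21.4% and 22.3% of all tested genes), with a median of 0.00. The D cyclin genes Ccnd1 and Ccnd2 fell by 0.49 (SE 0.10) and by 2.14 (SE 0.35), and the CDK4 inhibitor genes Cdkn2d (1.07, SE 0.13) and Cdkn2c (0.58, SE 0.20) rose. Cdkn2d was called in all 16 alternatives, whereas Cdkn2c lost its call without Control 1 (adjusted p = 0.149), without shMettl3 library 2 (0.304), with DESeq2 (0.147) and in the 1.5-fold test. Ccnd2 was at 0.595 and 0.747 CPM in the shMettl3 libraries and 3.67 and 2.29 CPM in the Control libraries.

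S phase and replication genes had a median nearer to that of all genes. Of 44 of them 10 rose and 1 fell (22.7% and 2.27%, against 21.4% and 22.3% of all tested genes), with a median of 0.12, and Control 2 was above Control 1 for 39. Dbf4, the activator of the replication kinase CDC7, rose by 0.64 (SE 0.10, adjusted p = 4.81e-04) and Mcm3, a subunit of the replicative helicase, by 0.48 (SE 0.08, adjusted p = 4.19e-04). Pola2, a subunit of DNA polymerase alpha, fell by 0.93 (SE 0.09, adjusted p = 2.11e-05). Without Control 1, 6 of the list rose and 6 fell, against 22.7% and 24.8% of tested genes, with a median of 0.00. Without Control 2, 17 rose and 1 fell, and 5 rose and 2 fell without shMettl3 library 1. These counts are to be read against the shares of all tested genes in the same fits, given above for the 43 genes. The difference between this list and the 43 genes was not tested.

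**Figure D5:**
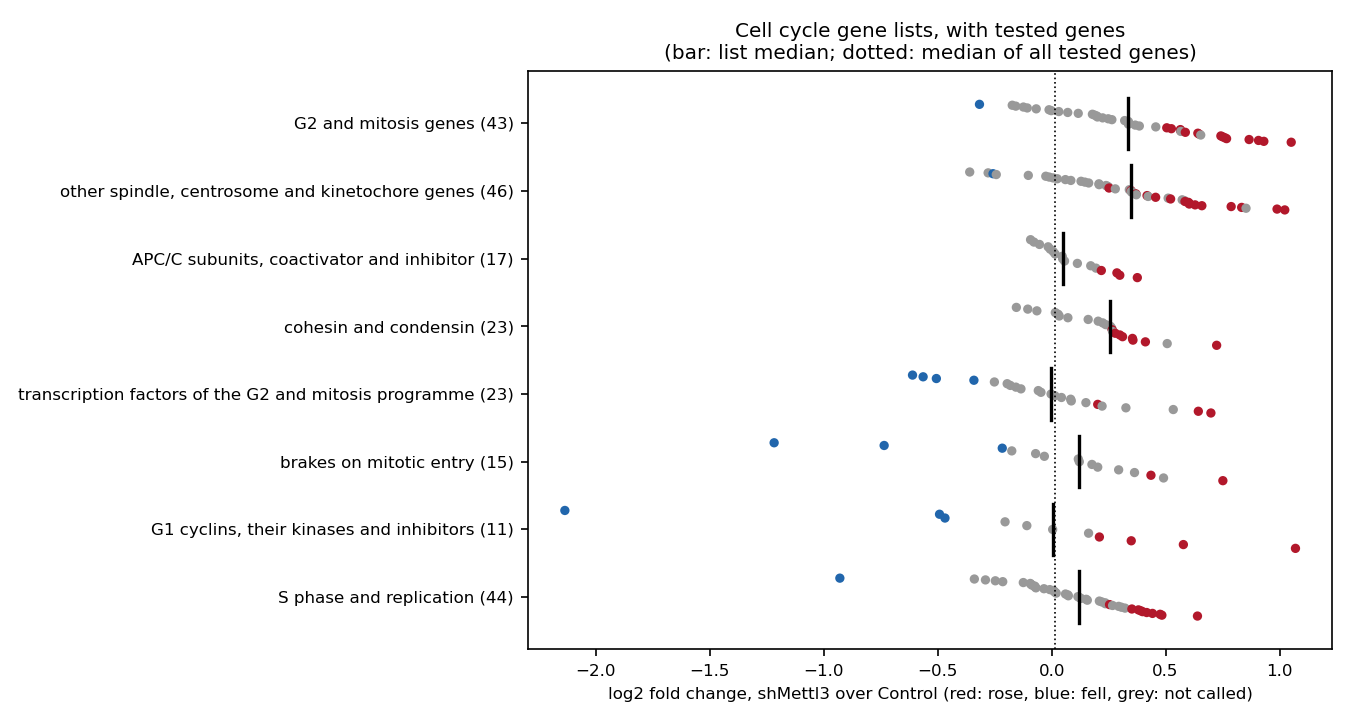
Log2 fold change (shMettl3 over Control) of every tested gene in the set of 43 and in 7 other cell cycle lists, coloured by call, with the list median as a bar and the median of all tested genes dotted. The set of 43 and the other spindle, centrosome and kinetochore genes have medians of 0.34 and 0.35, and the G1 and transcription factor lists have medians of 0.00.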

How the data were processed

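Estimated counts, FPKM and TPM of 14435 genes in 4 libraries were deposited by the authors in 1 table. The counts are the authors' unnormalized expected counts, not whole for 1808 genes, per the file headers and values; FPKM and TPM are the authors' length-scaled values, per the file headers. HISAT2 2.0.4, Bowtie2 2.2.5, RSEM 1.2.12 and mm9 are named in the submitters' processing notes without a role. Per the labels' protocols, cDNA was made by poly(A) priming and template switching, with no strand mark stated, and read as single ends. Promoters and annotation are of GRCm38, a later build than mm9, and no member's coordinates were taken from the table.

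Counts were rounded and tested with edgeR 4.0.16 in R 4.3.3: filterByExpr by group (count of at least 10, total of at least 15), TMM factors (1.03 and 1.04 for shMettl3, 0.97 and 0.966 for Control), a robust quasi-likelihood fit on the group, and Benjamini-Hochberg adjustment over 11035 genes. A standard error is the absolute log2 change divided by the root of F. Biological variation was 0.0678 as a common coefficient, on 2 residual degrees of freedom. CPM values are TMM-scaled. Counts of list members describe, with no set test.

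Values in every library are given for Cdk1, Ccnb1, Ccnb2, Plk1, Aurka, Aurkb, Cdc20, Top2a and Mki67, for the 12 called members with the largest change and for the 3 with the largest Control gap at a mean of at least 10 CPM (Ccnb2, Nuf2 and Cenpf). In other lists the 3 largest called changes and Foxm1, Mybl2, Wee1, Cdkn1a and Ccnd1 are named. The other MuvB subunits, E2f6, E2f1 and some further kinetochore and centromere genes were added after their values were seen. Members and lists were chosen with earlier results of these data known. Alternatives were another normalization, filter or test, DESeq2 1.42.0, limma 3.58.1 on log2(FPKM + 0.1), log2(FPKM + 1) and log2(TPM + 1), each library left out and the replicate number as a block.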

Additional observations from a re-analysis of the deposited data

How the results depend on the processing

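No alternative run changed the sign of the median of the 43 genes, which was 0.34 with all libraries and lay between 0.12 and 0.61 with 1 library left out. The count that rose was 15, or 10 to 33 with 1 library left out, 25 with log2(TPM + 1) and 1 in the test against a 1.5-fold change. The count that fell was 1, or 0 to 5 with 1 library left out and 0 with library size alone, with log2(FPKM + 0.1), log2(FPKM + 1) and log2(TPM + 1) and in the 1.5-fold test. Both directions together gave 16, and 10 to 33, 25 and 1 in the same alternatives. Of 8 role groups 6 had more rises than falls, or 1 in the 1.5-fold test, and of 7 other lists 5, or 1 in that test. Over all genes 4826 were called, 952 in the 1.5-fold test and 3095 to 5324 with 1 library left out. Of these calls 48.9% rose with TMM, 64.1% with library size alone, 63.1% with log2(FPKM + 1) and 70.0% with log2(TPM + 1), and these scalings moved the median of all genes to 0.11, 0.09 and 0.14. With library size alone 21 of the 43 genes rose and 0 fell, where 5098 genes were called in all. With log2(TPM + 1), where 25 of the 43 rose, 5052 genes were called in all. Both counts are to be read against these shifts over all genes. The cause of these shifts was not tested.

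Among the genes named, signs turned for genes that were not called with all libraries. Kif2c was at 0.0032 with the replicate block, 0.0935 with library size alone, 0.0114 in limma-voom, 0.0061 with a mean CPM of at least 5, 0.0975, 0.0791 and 0.134 with log2(FPKM + 0.1), log2(FPKM + 1) and log2(TPM + 1), and -0.20 to 0.20 with 1 library left out. Cdca8 was at 0.0042 with the block, 0.084 with library size alone, 0.019 in limma-voom, 0.1005, 0.0931 and 0.149 with FPKM and TPM, and -0.29 to 0.31 with 1 library left out. Espl1 was at 0.0278 with library size alone, 0.0542, 0.034 and 0.0847 with FPKM and TPM, and -0.33 to 0.23 with 1 library left out. With log2(TPM + 1) Cks2 was at 0.0186, Bub1b at 0.0073 and Bub3 at 0.0333. Lin52 was at 0.15 without Control 1. Leaving out 1 library gave -0.41 to 0.20 for Cks2, -0.40 to 0.11 for Bub1b, and ranges that crossed 0 for Ccna2 (-0.0141 to 0.43), Aurka (-0.0565 to 0.12), Aurkb (-0.0232 to 0.39), Birc5 (-0.016 to 0.55), Bub1 (-0.0445 to 0.18), Mad2l1 (-0.10 to 0.35), Mybl2 (-0.15 to 0.50) and Wee1 (-0.0035 to 0.24).

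The labels share replicate numbers but do not say that these pair libraries. Deviations of same-numbered libraries correlated at 0.15 over tested genes, with only 2 pairs. With the replicate block 20 of the 43 genes rose and 1 fell, and 5116 genes were called in all. Of those 5116 calls 49.8% rose, against 48.9% of the calls without the block. The lowest count of a member in a library was 35.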

Other observations

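The Control libraries were also compared over the other lists. The median log2 ratio of Control 2 over Control 1 was 0.28 over the 46 other spindle, centrosome and kinetochore genes, 0.20 over 44 S phase and replication genes, 0.19 over 23 cohesin and condensin genes and 0.03 over 17 APC/C genes. It was -0.04 over 11 G1 cyclins, kinases and inhibitors and -0.01 over 15 brakes on mitotic entry. The cohesin and condensin genes lay on both sides, with 13 of 23 higher in Control 2 (56.5%, against 50.7% of tested genes), and 10 higher and 7 lower beyond counting error. Beyond counting error, 22 of the 44 S phase genes were higher in Control 2 and 0 were lower, against 15.3% and 15.5% of all tested genes. Mybl2 was among the genes with a wide gap (0.65), and Foxm1 had one of 0.29.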
